A study of Mus musculus with 360 samples.

Results

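The genes described here are 3 that mark cells of the tendon lineage, Scx, Tnmd and Mkx, and the 5 members of the thrombospondin family, Thbs1, Thbs2, Thbs3, Thbs4 and Comp. They are 8 of the 24015 gene symbols in the count tables and were taken by name, with earlier results of these data known. Whole transcripts of single sorted cells were sequenced by SMART-seq2 in wild type CD-1 mice at postnatal day 3. The cells came from 3 sutures, the fibrous joints of the skull vault, each dissected with the tissue around it, and from the growth plate (GP) of the tibia, which the study used as a reference. The sutures were the posterior frontal (PF), which fuses early in life, and the sagittal (SAG) and coronal (COR), which do not. All groups shared 1 sorted phenotype, CD51+;CD200+ without CD105, 6C3, Tie2, Ter119, CD45, Thy1.2 or Thy1.1, by which the study defines skeletal stem/progenitor cells. After a filter of at least 500 genes with a read and 10000 reads with Rn45s included, 325 of 360 cells remained, namely 78 GP, 74 COR, 86 SAG and 87 PF cells, on 2 plates for each tissue. The mice were pooled and no animal is named for any cell, so each tissue counts as 1 sample, no test between tissues was run, and the plates gave the only spread.

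Tendons are the collagen cords that join muscle to bone, and at the tibia they insert close to the growth plate. Scx, a basic helix-loop-helix transcription factor, is the earliest known marker of tendon progenitors, Mkx is a homeobox factor needed for tendon collagen, and Tnmd is a membrane glycoprotein of maturing tendon cells. Thrombospondins are large secreted glycoproteins that bind calcium, collagens and cell surface receptors. Thbs1 and Thbs2 form trimers and are best known as inhibitors of new blood vessels, whereas Thbs3, Thbs4 and Comp, the cartilage oligomeric matrix protein, form pentamers, and Comp and Thbs4 are abundant in tendon and cartilage matrix.

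In the mouse build mm9 the genes lie apart from each other, and each value counts reads over the whole gene. Scx is at chr15:76287868-76289898 on the plus strand, Tnmd at chrX:130385519-130400116 on the plus strand and Comp at chr8:72897447-72905964 on the plus strand. The other thrombospondins are at chr2:117937612-117952869 (Thbs1, plus), chr17:14802507-14831269 (Thbs2, minus), chr3:89019102-89030759 (Thbs3, plus) and chr13:93521545-93564773 (Thbs4, minus). The 250 bases before the RefSeq transcription start are shown for 4 genes found in the RefSeq promoter table (GRCm38.p6), namely Tnmd, Thbs3 and Thbs4, which were higher in GP than in every suture, and Thbs2, which was not. Each was found once, unchanged, in mm9, at chrX:130385297-130385546, chr3:89018852-89019101, chr13:93564774-93565023 and chr17:14831270-14831519 in that order, and is written 5′ to 3′ on the strand of its gene. The Thbs windows end at the gene start annotated in mm9, whereas the last 28 bases of the Tnmd window lie inside the annotated gene. Capitals mark the E-box, CANNTG, the motif that basic helix-loop-helix factors such as Scx bind.
Tnmd: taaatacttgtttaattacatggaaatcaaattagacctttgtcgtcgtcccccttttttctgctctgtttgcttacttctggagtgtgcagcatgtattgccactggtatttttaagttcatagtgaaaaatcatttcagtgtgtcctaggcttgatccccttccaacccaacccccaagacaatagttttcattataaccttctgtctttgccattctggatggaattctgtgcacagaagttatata
Thbs3: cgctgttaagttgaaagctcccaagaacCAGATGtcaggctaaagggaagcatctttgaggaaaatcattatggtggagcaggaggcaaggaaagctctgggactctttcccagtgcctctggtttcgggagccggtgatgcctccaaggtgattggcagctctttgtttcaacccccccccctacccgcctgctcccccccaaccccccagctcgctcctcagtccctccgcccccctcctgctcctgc
Thbs4: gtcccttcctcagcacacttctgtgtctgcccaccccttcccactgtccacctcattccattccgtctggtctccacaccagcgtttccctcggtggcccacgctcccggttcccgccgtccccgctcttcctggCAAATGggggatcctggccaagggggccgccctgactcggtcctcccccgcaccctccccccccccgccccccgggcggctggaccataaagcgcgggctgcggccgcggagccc
Thbs2: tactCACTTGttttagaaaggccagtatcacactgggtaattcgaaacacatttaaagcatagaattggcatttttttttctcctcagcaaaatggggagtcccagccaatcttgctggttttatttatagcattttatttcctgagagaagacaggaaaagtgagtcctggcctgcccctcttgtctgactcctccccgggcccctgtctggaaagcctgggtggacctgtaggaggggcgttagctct
The pattern CANNTG reads the same on both strands, though the matches printed here do not. Tnmd had no E-box in this window, Thbs3 had CAGATG starting 222 bases before the start, Thbs4 had CAAATG at 115 bases and Thbs2 had CACTTG at 246 bases. Of all 32851 promoter windows of this length 66.2% held at least 1 E-box, so single matches like these were common. The word TATAAA, searched on both strands, was present in Thbs2 alone of the 4 and in 12.4% of all windows.

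Reads of the ribosomal RNA gene Rn45s were left out of all totals, because they made up 86.8% of reads on SAG plate 2 and 20.2% to 31% on the other 7 plates. SAG plate 2 also stood apart in its median number of genes per cell, 875 against 2112 to 3867 on the other plates. Without Rn45s the totals were 28471545 reads for GP, 32037308 for COR, 17212041 for SAG and 30299518 for PF. Levels are given as CPM, the reads of a gene per 1000000 of these reads. Results of the members on SAG are mostly given by plate or without its plate 2 as well. Those of the gene lists include plate 2 unless stated. Of the genes sorted on, the CD51 gene Itgav was read in 16 to 45 cells of each tissue and Cd200 in 29 to 41, and many sorted cells therefore lacked a read of them. Of the genes sorted against, Tek (Tie2) had no read in any cell, while Enpep (6C3) was read in 6, 6, 5 and 3 cells of PF, SAG, COR and GP, Eng (CD105) in 4, 4, 4 and 0, Ptprc (CD45) in 3, 0, 1 and 1, and Thy1 in 1, 0, 1 and 0. Of the cartilage genes, Col2a1 was read in 21 of 78 GP cells, in 56 of 86 SAG cells, in 8 PF cells and in 3 COR cells, and Col10a1 in 13 GP cells. Fewer cells with a gene and less of its RNA per cell cannot be told apart in a summed level, so shares of cells are given beside it. The intervals below are 95% intervals for counting error only, since reads after PCR are not molecules.

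Of the 8 genes, 5 were higher in GP than in PF, 4 were higher in GP than in SAG, and 6 were higher in GP than in COR. A gene was called higher where the log2 ratio of (CPM + 1) was at least 1 and all 4 comparisons of a plate of one tissue with a plate of the other had that sign. Scx, Tnmd, Thbs3 and Thbs4 met this rule against all 3 sutures, Comp against PF and COR, and Mkx against COR. By the same rule 8.61% of 10686 genes with at least 10 CPM in any tissue were called higher in GP than in PF, 18.3% higher than in SAG and 7.02% higher than in COR. In the other direction 7.56% of genes were called lower in GP than in PF, 6.39% lower than in COR and 12.4% lower than in SAG. Of the 8 genes 0, 0 and 1 were, the last being Thbs1. The median log2 ratio of all these genes was -0.09 for GP to PF, 0.25 for GP to SAG and -0.06 for GP to COR. The 3 comparisons share the GP cells and are not independent of each other.

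**Figure D1:**
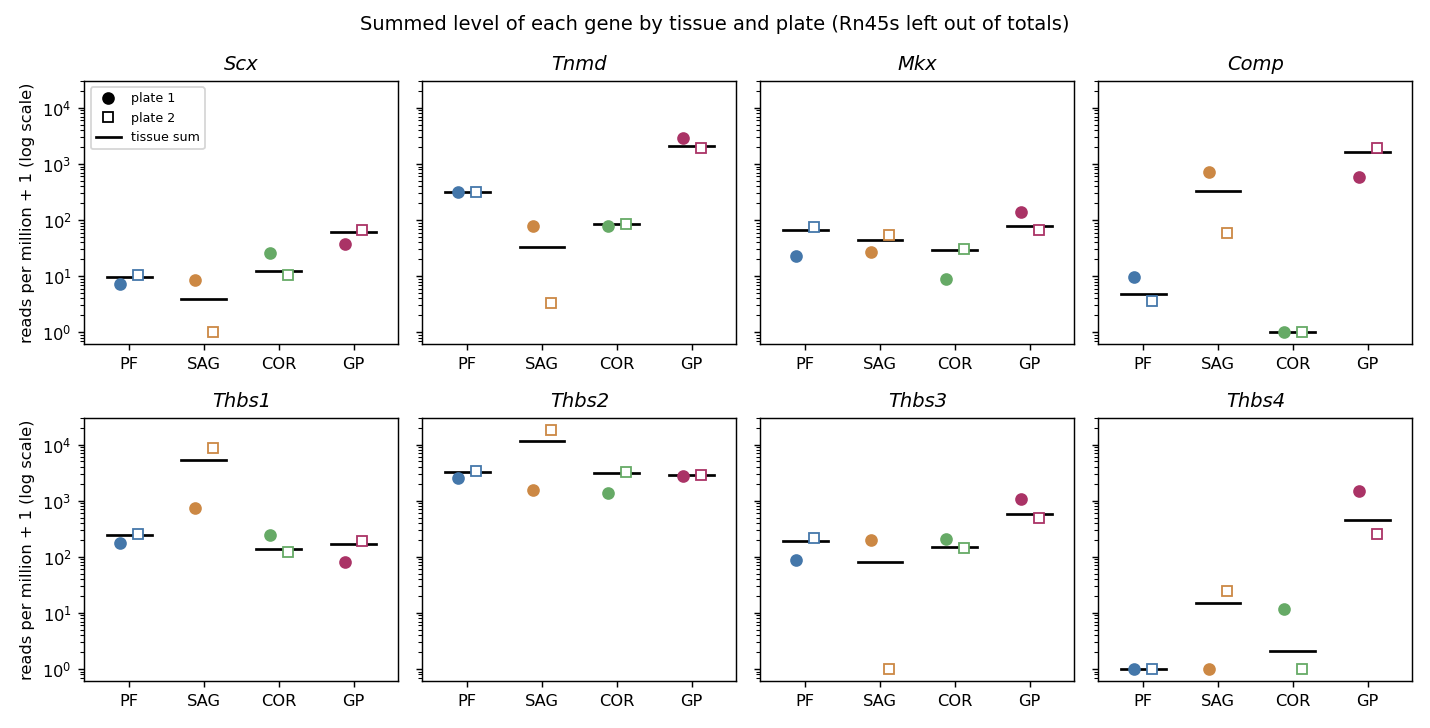
Summed level of each of the 8 genes, in CPM + 1 on a log scale, for the 4 tissues. Filled circles are plate 1, open squares are plate 2 and lines are the tissue sums. Both GP plates lie above all 6 suture plates for Scx, Tnmd, Thbs3 and Thbs4, and SAG plate 2 lies highest for Thbs1 and Thbs2.

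Tnmd was the member with the highest level per length in GP. Its summed level was 2927 CPM on GP plate 1 and 1913 CPM on GP plate 2, against 311 and 315 CPM on the PF plates, 76.3 and 84.1 CPM on the COR plates, and 77.7 and 2.32 CPM on the SAG plates. No suture plate came near either GP plate. The log2 ratio was 2.73 for GP to PF, with plate ratios from 2.60 to 3.23 (SD 0.35 over 4 plate ratios), 4.63 for GP to COR, with plate ratios from 4.49 to 5.24, and 5.97 for GP to SAG, with plate ratios from 4.60 to 9.78 and 4.73 without SAG plate 2. By CPM it was the 31st gene of GP and the 392nd of PF. Reads were found in 41 of 78 GP cells (52.6%, interval 40.9% to 64%). It was read in 41.4% of the PF cells (36 cells, 30.9% to 52.4%), in 20.3% of the COR cells (15 cells, 11.8% to 31.2%) and in 12.8% of the SAG cells (11 cells, 6.56% to 21.7%). Among cells with a read the median was 2823 CPM in GP, 552 CPM in PF, 278 CPM in COR and 220 CPM in SAG, and 32 GP cells, 7 PF cells, 4 COR cells and no SAG cell reached 1000 CPM.

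Scx was a weak signal in all tissues. It stood at 36.6 and 64.3 CPM on the GP plates, 6.26 and 9.47 CPM on the PF plates, 25.3 and 9.51 CPM on the COR plates, and 7.42 and 0 CPM on the SAG plates. The GP plates were highest, but GP plate 1 and COR plate 1 lay near each other. The log2 ratio was 2.62 for GP to PF (plate ratios 1.85 to 3.17), 3.93 for GP to SAG (2.16 to 6.03, and 2.85 without SAG plate 2) and 2.32 for GP to COR (0.52 to 2.64). Reads were present in 28 GP cells (35.9%, 25.3% to 47.6%), 13 COR cells (17.6%, 9.70% to 28.2%), 4 PF cells (4.60%, 1.27% to 11.4%) and 2 SAG cells (2.33%, 0.283% to 8.15%). With each cell's CPM given the same weight, all 4 plate comparisons of GP with COR no longer had the same sign and the call was lost. Scx lies on the opposite strand within Bop1, a ribosome biogenesis gene, in intron 3 or 5 depending on the Bop1 transcript, with 0 bases of shared exon. The use of strand in counting was not stated, so a Bop1 intron read could count for Scx. Of 47 cells with an Scx read, 36 had no Bop1 read, and these held 80.5% of the Scx reads. In GP it was 22 of 28 cells with 78.5% of the reads, whereas both SAG cells with Scx also had Bop1. Bop1 itself was at 36.5 CPM in GP and at 33.2, 36.2 and 67.6 CPM in PF, SAG and COR.

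Mkx, which in mm9 spans bases 6934964 to 7004777 of chromosome 18 on the minus strand, differed less between tissues than Scx and Tnmd. It was at 139 and 66.5 CPM on the GP plates, 21.6 and 75.3 CPM on the PF plates, 26.2 and 53.2 CPM on the SAG plates and 7.72 and 30.1 CPM on the COR plates. The plates of GP overlapped those of PF, and the log2 ratio to PF was 0.28 with plate ratios from -0.18 to 2.62. The log2 ratio to COR was 1.47 with plate ratios from 1.12 to 4.0, which met the rule, and that to SAG was 0.88, which did not. Without SAG plate 2 the ratio to SAG was 1.56 and Mkx was then called higher in GP. Reads were present in 21 GP cells (26.9%, 17.5% to 38.2%), 17 PF cells (19.5%, 11.8% to 29.4%), 10 COR cells (13.5%, 6.68% to 23.5%) and 9 SAG cells (10.5%, 4.90% to 18.9%).

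Thbs4, a thrombospondin of tendon, muscle and heart matrix, was read almost only in GP. Its summed level was 1459 and 250 CPM on the GP plates. It had no read on either PF plate, on SAG plate 1 or on COR plate 2, and stood at 23.4 CPM on SAG plate 2 and 10.8 CPM on COR plate 1, where 1 cell each held all the reads. In GP it was read in 16 of 78 cells (20.5%, 12.2% to 31.2%), and in 2 of 247 suture cells (0.810%, 0.0982% to 2.89%). In PF 0 of 87 cells allows a share of up to 3.45%, at the limit of 3 counts used here for a count of 0. GP stood 4643-fold above a floor of 3 reads over the PF cells. That is no lower limit, since the 1 SAG cell with Thbs4 held 242 reads and the 1 COR cell held 35. The log2 ratio was 4.94 to SAG (plate ratios 3.36 to 10.51) and 7.78 to COR (4.41 to 10.51). The 3 highest GP cells held 11181, 7689 and 7675 CPM, and 10 cells reached 1000 CPM.

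Comp was read in GP and SAG and hardly elsewhere. It was at 582 and 1893 CPM on the GP plates, 726 and 57.7 CPM on the SAG plates, 8.79 and 2.58 CPM on the PF plates and 0 CPM on both COR plates. The plates of GP and SAG overlapped, while every plate of both was above those of PF and COR. A single cell on GP plate 2, with 46833 CPM of Comp and 48224 CPM of Col2a1, held 86.1% of all GP reads of the gene. Without the top cell the GP level was 239 CPM in place of 1665 CPM, and the call against PF and COR remained when the top cell of every tissue was left out. Cells with a read numbered 29 of 78 in GP (37.2%, 26.5% to 48.9%), 17 of 86 in SAG (19.8%, 12% to 29.8%), 2 of 87 in PF and 0 of 74 in COR, which by the same limit allows a share of up to 4.05%. GP stood 17782-fold and SAG 3467-fold above a floor of 3 reads over the COR cells. Without the top cell of GP or of SAG these values were 2554-fold and 2274-fold. They are not lower limits, since 1 cell with a read can hold more than 3 reads. The log2 ratio of GP to PF was 8.44, with plate ratios from 5.90 to 9.05, and 6.45 without the top cell of each tissue, and that of GP to SAG was 2.36, with plate ratios from -0.32 to 5.01. Without the top cell of each, GP and SAG were at 239 and 213 CPM. On SAG plate 1 alone 12 of 30 cells (40%) had a read.

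Thbs3, the remaining pentameric member, was present in all tissues and highest in GP. It was at 1077 and 485 CPM on the GP plates, 85.5 and 215 CPM on the PF plates, 204 and 140 CPM on the COR plates, and 196 and 0 CPM on the SAG plates. The GP plates did not overlap those of any suture. The log2 ratio was 1.63 to PF (plate ratios 1.17 to 3.64), 1.99 to COR (1.25 to 2.93) and 2.90 to SAG (1.31 to 10.07), and without SAG plate 2 it was 1.58. Reads were present in 46 GP cells (59%, 47.3% to 70%), 38 COR cells (51.4%, 39.4% to 63.1%), 29 PF cells (33.3%, 23.6% to 44.3%) and 11 SAG cells (12.8%, 6.56% to 21.7%), all of the latter on plate 1. The median among cells with a read was 768 CPM in GP and 220 CPM in COR. Thbs3 shares 318 bases of exon with Mtx1, a mitochondrial outer membrane gene on the opposite strand, which is 6.59% of its exonic length. Mtx1 was at 51 CPM in GP and between 29.4 and 39.7 CPM in the sutures, and 25 of the 46 GP cells with Thbs3, holding 61.5% of its reads, had no Mtx1 read.

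The trimeric members, Thbs1 and Thbs2, were not called higher in GP than in any suture. Thbs2 was the most widely read of the 8 genes, in 64 of 78 GP cells (82.1%), 78 of 87 PF cells (89.7%), 75 of 86 SAG cells (87.2%) and 72 of 74 COR cells (97.3%). It ranked 20th of all genes by CPM in GP, 12th in both PF and COR and 5th in SAG. Its level was 2762 and 2846 CPM on the GP plates, 2494 and 3410 CPM on the PF plates and 1382 and 3298 CPM on the COR plates, so that these 3 tissues overlapped, with log2 ratios of GP of -0.19 to PF and -0.13 to COR. On the SAG plates it was at 1545 and 18447 CPM. SAG plate 1 lay below both GP plates and SAG plate 2 above every other plate, and the ratio of GP to SAG was therefore not called at a log2 value of -2.05.

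Thbs1, an activator of latent TGF-beta, was at 78.9 and 187 CPM on the GP plates, 174 and 256 CPM on the PF plates and 242 and 122 CPM on the COR plates. These 3 tissues overlapped as well. The SAG plates, at 726 and 8549 CPM, were both higher than any other plate, and the log2 ratio of GP to SAG was -5.00 with plate ratios from -6.74 to -1.95. Without SAG plate 2 it was -2.10 and still called. Reads were present in 55 of 86 SAG cells (64%, 52.9% to 74%), in similar shares on both plates, 63.3% and 64.3%, against 33 GP cells (42.3%), 39 PF cells (44.8%) and 24 COR cells (32.4%). Among cells with a read the median on SAG plate 2 was 7109 CPM, and that on SAG plate 1 was 500 CPM. The share of Rn45s and the number of genes moved with the high levels of Thbs1 and Thbs2 on SAG plate 2, and their part in these levels was not tested.

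**Figure D2:**
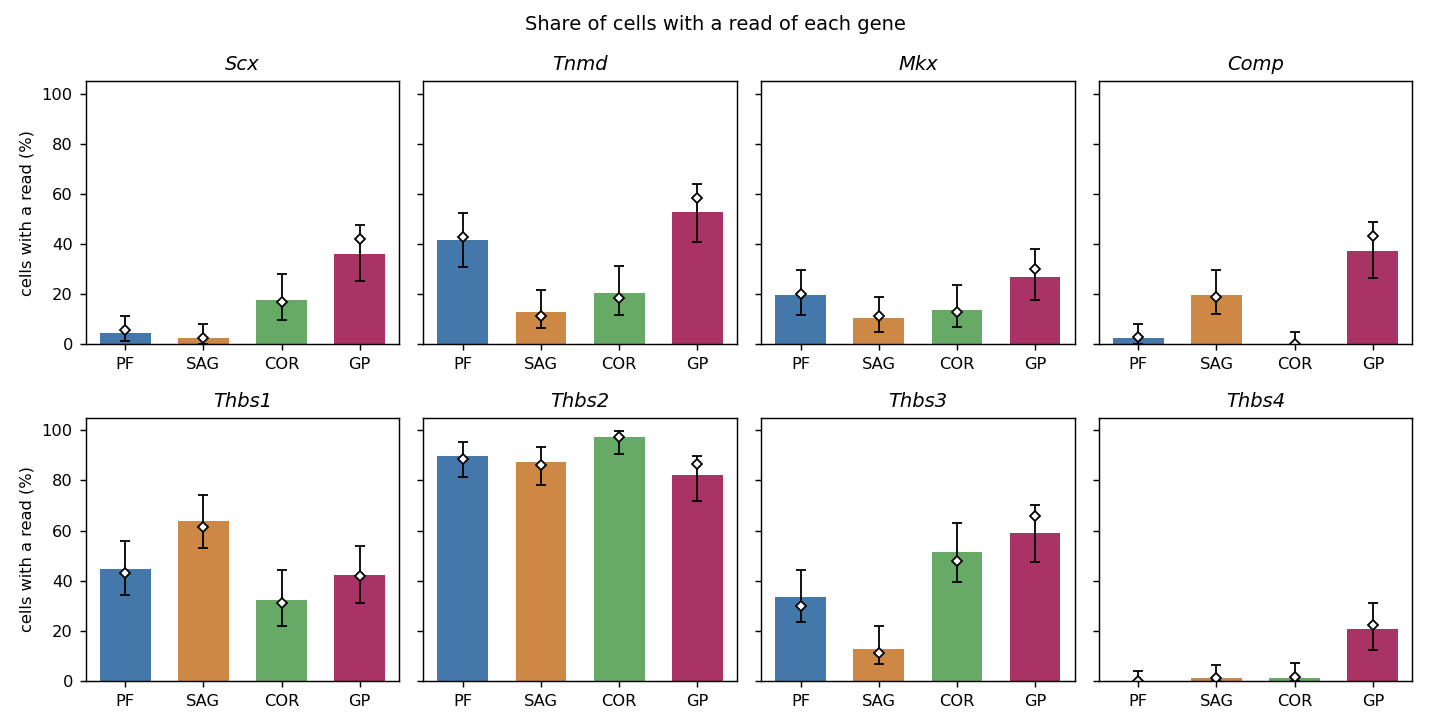
Share of cells with at least 1 read of each gene in the 4 tissues, in percent. Bars carry exact binomial 95% intervals, and open diamonds give the share after every cell was thinned to 100000 reads other than Rn45s. Tnmd reaches 52.6% of GP cells and 12.8% of SAG cells, and Thbs2 lies above 80% in every tissue.

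The order of the tissues by these shares was the same after thinning for every member but Thbs2, for which GP and SAG, close to each other, changed places. When each cell was thinned to 100000 reads, with 11 GP, 17 PF, 6 SAG and 3 COR cells too shallow to enter, the share in GP was 58.2% for Tnmd, 41.8% for Scx, 43.3% for Comp, 65.7% for Thbs3 and 22.4% for Thbs4. The same shares in PF were 42.9%, 5.71%, 2.86%, 30% and 0%. In COR they were 18.3%, 16.9%, 0%, 47.9% and 1.41%, and on SAG plate 1 they were 28%, 8.0%, 40%, 36% and 0%. Per kilobase of exon, which allows genes to be compared, the order in GP was Tnmd at 1544 CPM per kb, Comp at 687, Thbs2 at 478, Thbs4 at 140, Thbs3 at 122, Scx at 52.4, Thbs1 at 27.8 and Mkx at 24.7. The place of Comp rested on 1 cell. Without the top cell of each gene Comp was at 98.6 CPM per kb in GP, below Tnmd at 1288, Thbs2 at 451, Thbs3 at 112 and Thbs4 at 110. In PF and COR Thbs2 came first, at 545 and 524 CPM per kb, before Tnmd at 233 and 61.6. In SAG Thbs2 at 1974 and Thbs1 at 893 CPM per kb led the order, and on SAG plate 1 alone Comp was at 299, Thbs2 at 261 and Thbs1 at 120. Without the top cell of each gene on that plate Thbs2 came first at 229, before Comp at 191.

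Cells were called tendon-like where they had a read of at least 2 of Scx, Tnmd and Mkx. The name stands for this rule alone, for which 1 read of a gene was enough, and does not assign a cell type. Since these 3 genes chose the cells, their levels there are no finding. The rule was met by 30 of 78 GP cells (38.5%, 27.7% to 50.2%). In the sutures 12 of 87 PF cells met it (13.8%, 7.34% to 22.9%), as did 7 COR cells of 74 (9.46%, 3.89% to 18.5%) and 3 SAG cells of 86 (3.49%, 0.725% to 9.86%). By plate the share was 35% and 39.7% in GP, 2.94% and 20.8% in PF, 18.8% and 6.90% in COR and 6.67% and 1.79% in SAG. Both GP plates were above every suture plate, and the PF plates differed from each other more than the GP plates did. Of the GP cells 19 had exactly 2 of the 3 genes, 11 had all 3, and 19 more had 1. Of the 32 GP cells with at least 1000 CPM of Tnmd, 23 met the rule. The median tendon-like cell had 443474 reads in GP and 411944 reads in the sutures, with 3065 and 3106 genes, and the other GP cells had 237346 reads and 2897 genes.

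**Figure D3:**
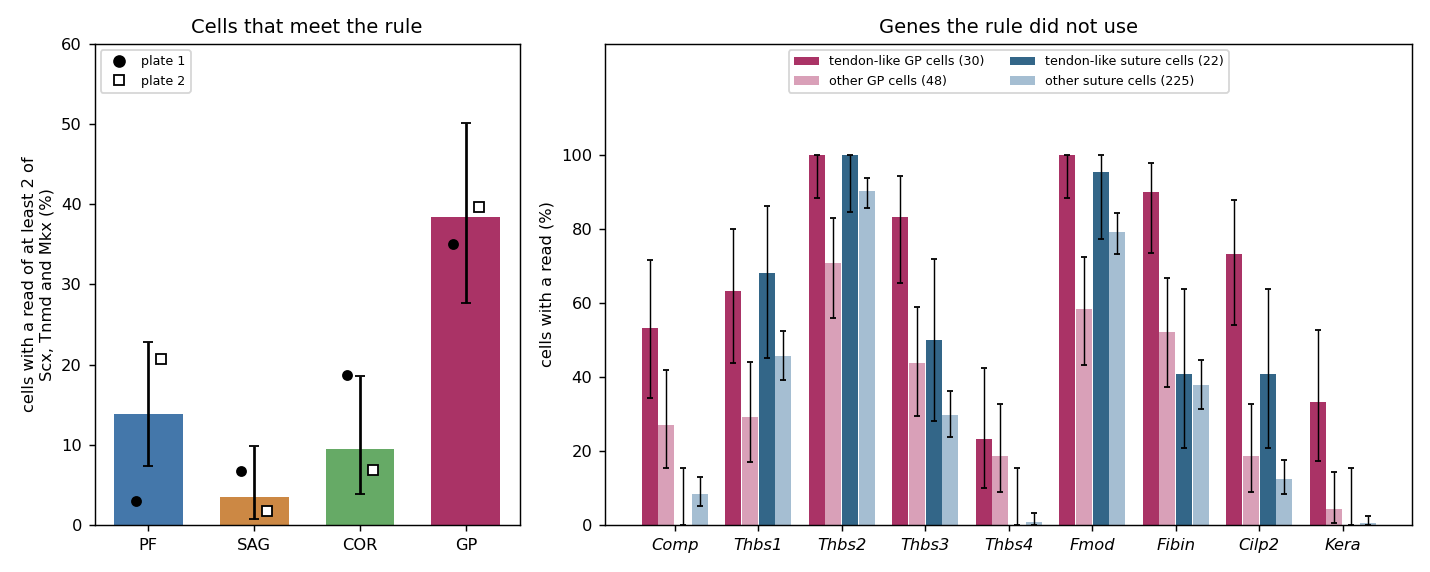
Left, share of cells with a read of at least 2 of Scx, Tnmd and Mkx by tissue, with exact binomial 95% intervals and the 2 plates as points. Right, share of cells with a read of 9 genes that the rule did not use, in the cells that met the rule and in the others, in GP and in the sutures. Comp, Thbs4 and Kera have no read in the 22 suture cells that met the rule.

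Comp was read in 16 of 30 tendon-like GP cells (53.3%, 34.3% to 71.7%) and in 0 of 22 tendon-like suture cells, which allows a share of up to 13.6%, while 8.44% of the 225 other suture cells had it. Of these 22 cells 12 were PF, 7 COR and 3 SAG cells, whereas the suture cells with Comp were 17 SAG and 2 PF cells. Class and suture cannot be told apart in this comparison of suture cells. Thbs4 was read in 7 of 30 (23.3%, 9.93% to 42.3%) and in 0 of 22. Thbs3 was read in 25 of 30 (83.3%, 65.3% to 94.4%) and in 11 of 22 (50%, 28.2% to 71.8%), and its summed level was 820 CPM and 237 CPM. These pairs of shares were not tested. Thbs2 was read in all 30 and in all 22, at 4345 and 4492 CPM, and Thbs1 in 19 of 30 (63.3%) and in 15 of 22 (68.2%). After thinning to 100000 reads Comp was in 53.3% of 30 and in 0% of 21 cells, and Thbs4 in 23.3% and 0%. In the tendon-like GP cells of plate 1 Comp was read in 100% of 7 cells, and in those of plate 2 in 39.1% of 23.

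The other 48 GP cells, which had fewer reads per cell, had a read of Thbs2 in 70.8%, of Thbs3 in 43.8% (29.5% to 58.8%), of Thbs1 in 29.2% (17% to 44.1%), of Comp in 27.1% (15.3% to 41.8%) and of Thbs4 in 18.8% (8.95% to 32.6%). Thinned to 100000 reads, 30 tendon-like and 37 other GP cells had Thbs2 in 100% and 75.7%, Thbs3 in 83.3% and 51.4%, Thbs1 in 60% and 27%, Comp in 53.3% and 35.1%, and Thbs4 in 23.3% and 21.6%. The part of depth in these shares was not tested further. The level of Thbs4 was 391 CPM in the tendon-like GP cells and 522 CPM in the others. Of the 9 other GP cells with Thbs4, 7 had Tnmd without Scx or Mkx, so that 14 of the 16 GP cells with Thbs4 had a Tnmd read. The remaining 2, at 11181 and 7675 CPM, were the highest and the third highest of all. At least 4 of the 5 thrombospondins were read in 14 of 30 tendon-like GP cells, in 7 of 48 other GP cells, in 0 of 22 tendon-like suture cells and in 4 of 225 other suture cells.

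**Figure D4:**
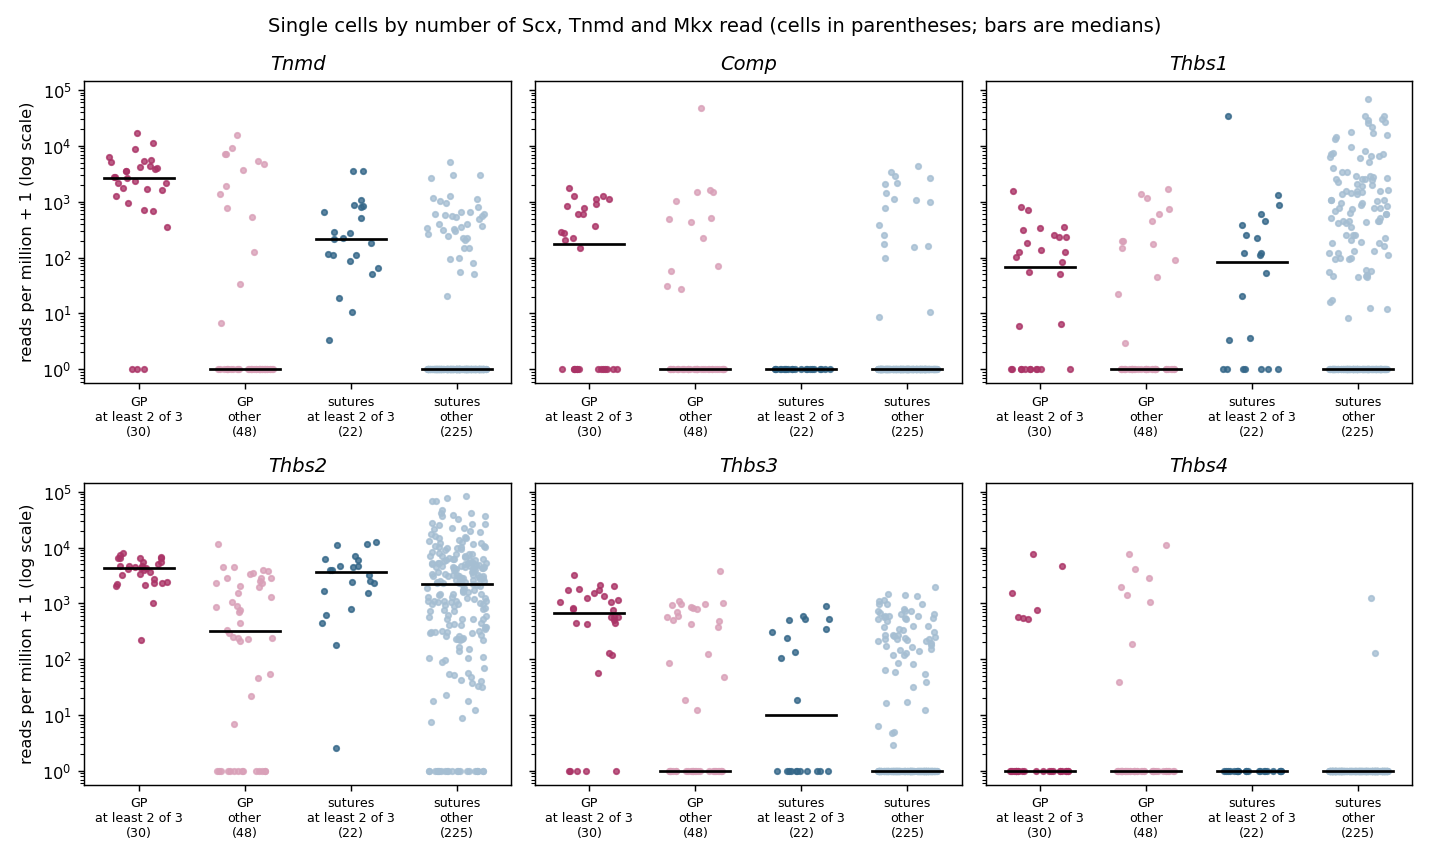
Level of 6 genes in every cell, in CPM + 1 on a log scale, for GP and suture cells that met the rule of at least 2 of Scx, Tnmd and Mkx and for those that did not. Points are cells and bars are medians. The GP cell with 46833 CPM of Comp is among the GP cells that did not meet the rule, and Thbs4 appears in 16 GP cells and 2 suture cells.

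Matrix genes of tendon that the rule did not use were set beside the members in the same classes of cells. Fmod, a collagen-binding proteoglycan of tendon, was read in 30 of 30 at 9017 CPM, against 58.3% of other GP cells at 2502 CPM and 21 of 22 tendon-like suture cells at 3400 CPM. Fibin was read in 27 of 30 (90%, 73.5% to 97.9%), against 9 of 22 tendon-like suture cells (40.9%, 20.7% to 63.6%). Cilp2, an extracellular matrix gene, was read in 22 of 30 (73.3%) and in 9 of 22 (40.9%), and Kera, a keratan sulphate proteoglycan, in 10 of 30 (33.3%) and in 0 of 22. Tnc, the tenascin of tendon and of developing bone, was read in 28 of 30 and in 17 of 22, and Chodl in 2 of 30 and 0 of 22. The 225 other suture cells had Fmod in 79.1%, Fibin in 37.8%, Cilp2 in 12.4%, Tnc in 60% and Kera in 1 cell, and after thinning Fibin was in 28.6% of tendon-like and 38.5% of other suture cells. Thinned GP cells had Fibin in 90% of the tendon-like and 59.5% of the others. The list of 20 other tendon genes summed to 40598 CPM in tendon-like GP cells, 15095 CPM in other GP cells, 21581 CPM in tendon-like suture cells and 19793 CPM in other suture cells. Summed over the 6 genes of the tendon marker list that are not members, the tendon-like GP cells had a median of 13450 CPM, from 4392 to 24515 CPM, and the tendon-like suture cells 3843 CPM, from 172 to 15629 CPM.

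Markers of other cell types were measured in the same cells. The 11 chondrocyte genes summed to 491 CPM in tendon-like GP cells and to 7589 CPM in other GP cells, while the medians over cells were 395 and 405 CPM, so that few cells held most of the difference. The 8 pericyte or smooth muscle genes, led by Acta2, summed to 404 and 3388 CPM, and the 6 neural or glial genes to 11.1 and 1450 CPM. For both lists the median over cells was 0 in both classes. Any read of the pericyte or smooth muscle list was found in 46.7% and 47.9% of cells, and of the neural or glial list in 13.3% and 37.5%. Among the 7 skeletal muscle and the 6 endothelial genes no read was found in tendon-like GP cells, so the satellite cell genes Myod1, Myf5 and Pax7 were at 0. The 6 haematopoietic genes summed to 5.98 CPM there. The 10 osteoblast genes, mostly Col1a1 and Spp1, summed to 96464 CPM in tendon-like GP cells and to 105632 CPM in the other GP cells, and the 10 fibroblast genes to 43088 and 17690 CPM.

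**Figure D5:**
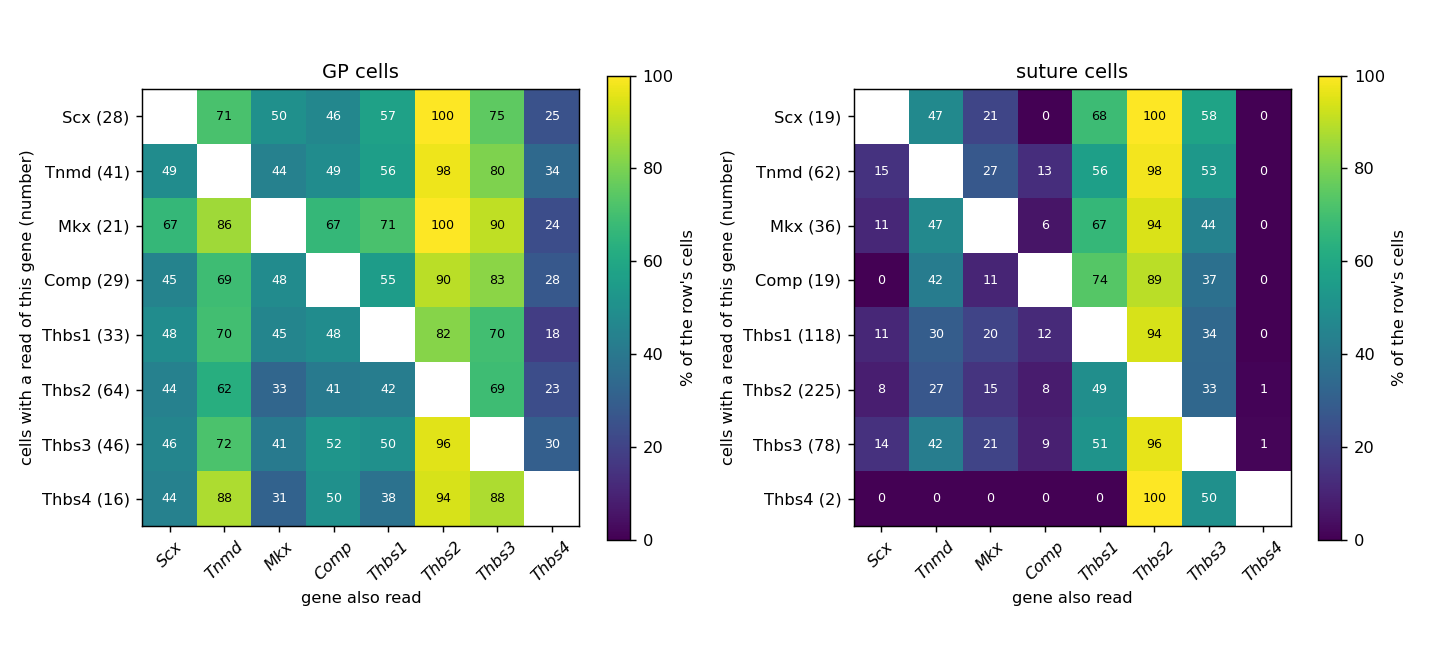
Share of the cells with a read of the gene in the row (their number in parentheses) that also had a read of the gene in the column, in percent, for the 78 GP cells on the left and the 247 suture cells on the right. Of the 28 GP cells with Scx 71% also have Tnmd, and of the 19 suture cells with Scx none has Comp or Thbs4.

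In GP, cells with Tnmd held each of the other members more often than cells without it. Of the 41 GP cells with Tnmd, 20 had Scx (48.8%), 18 had Mkx (43.9%), 20 had Comp (48.8%), 33 had Thbs3 (80.5%) and 14 had Thbs4 (34.1%), whereas of the 37 GP cells without Tnmd 21.6% had Scx, 8.11% Mkx, 24.3% Comp, 35.1% Thbs3 and 5.41% Thbs4. Of the 62 suture cells with Tnmd, 9 had Scx (14.5%), 17 had Mkx (27.4%), 33 had Thbs3 (53.2%), 8 had Comp (12.9%) and 0 had Thbs4. Of the 29 GP cells with Comp, 20 had Tnmd (69%) and 9 had Col2a1 (31%), where 52.6% and 26.9% of all GP cells had those genes. Of the 17 SAG cells with Comp, 16 had Col2a1 (94.1%) and 7 had Tnmd (41.2%), where 65.1% and 12.8% of all SAG cells had them. On SAG plate 1 it was 11 of 12 cells with Col2a1 (91.7%) and 7 with Tnmd (58.3%), where 73.3% and 30% of all cells had them, so that there, as in GP, both genes were at a higher share in the cells with Comp. Whether these shares differ between the tissues was not tested. The cell with most Comp in GP had Col2a1 and Ibsp, a bone matrix gene, but no read of Scx, Tnmd or Mkx.

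In a clustering of the 78 GP cells that left the 8 members out of the variable genes, the 30 tendon-like cells fell into all 3 clusters, with 21 in cluster 1, 8 in cluster 0 and 1 in cluster 2. Cluster 1 held 27 cells, of which 21 were tendon-like and 25 had a read of Tnmd. Its leading genes were Penk, Igfbp3, Gas2, Ism1 and Sfrp2, and as no tendon marker was among its 10 leading genes it is given by its number. Its summed levels were 3561 CPM of Tnmd, 184 CPM of Mkx, 1020 CPM of Thbs3 and 3838 CPM of Thbs2. Cluster 0, led by Acta2 and Bglap, held 30 cells, 8 of them tendon-like, with 1100 CPM of Tnmd, 25.9 CPM of Mkx and 265 CPM of Thbs3. Cluster 2, led by Col10a1 and Mmp13, held 21 cells, 1 of them tendon-like, with 2053 CPM of Tnmd in 6 cells and no read of Scx. Its cells were shallower, with medians of 115068 reads without Rn45s and 1693 genes. These medians were 378358 and 2940 in cluster 1 and 528208 and 3675.5 in cluster 0. The part of depth in the differences between clusters was not tested. Thbs4 was spread over the clusters, in 5, 7 and 4 cells, and its level was lowest in cluster 1, at 255 CPM against 594 and 480 CPM. The clusters were formed from the same cells and are a description.

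Over the 78 GP cells, the genes most like a member in level were found by the correlation of log2(CPM + 1) among 7411 genes. These cells came from both GP plates and shared the library preparation, but not depth. Their reads per cell, counted without the ribosomal RNA gene, ran from 3628 to 871328. The part of depth in the correlations was not tested. For Tnmd they were Abi3bp (Pearson r = 0.79 in GP, 0.31 in PF and -0.08 in COR), Mfap4 (0.77, 0.50 and 0.37) and Il11ra1 (0.75, 0.48 and 0.21). For Thbs2 they were Mfap2 (0.77, 0.61 and 0.44), Mmp2 (0.75, 0.52 and 0.62) and Fndc1 (0.74, 0.47 and 0.56). For Thbs3 they were Fndc1 (0.71, 0.44 and 0.25), Lum (0.66, 0.09 and 0.23) and Fmod (0.64, 0.36 and 0.26). The other members had lower values. Thbs4 came closest to Cd34 (0.58), Meox2 (0.54) and Angptl1 (0.52), Mkx to Cilp2 (0.56), Ccdc3 (0.51) and Cpxm1 (0.51), and Scx to Dkk3 (0.54), Tmem119 (0.52) and Cpxm1 (0.52). Comp came closest to Cpxm2 (0.52), Igfbp7 (0.47) and Mgp (0.46), and Thbs1 to Rspo3 (0.47), Igfbp2 (0.41) and Agtr2 (0.39). In sparse counts of single cells the lower of these values say little, and Cd34 and Meox2 were read in 10 GP cells each.

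The gene lists here and below were chosen with earlier results of these data known, so their counts are descriptions only. Other genes of tendon were described by a list of 20. Of these, 9 were called higher in GP than in PF and 0 lower, 10 higher and 3 lower than in SAG, and 9 higher and 1 lower than in COR. Among all genes tested 8.61% and 7.56%, 18.3% and 12.4%, and 7.02% and 6.39% were. The median log2 ratio of the list was 0.98, 1.41 and 0.85 in the 3 comparisons, against -0.09, 0.25 and -0.06 over all genes. Fmod was at 5602 CPM in GP and at 2775, 2872 and 1271 CPM in PF, SAG and COR, and was called against PF and COR. Fibin, at 747 CPM in GP and 71.5 to 211 CPM in the sutures, was called against all 3. Dcn, Lum and Bgn, small proteoglycans found in many connective tissues, were at 4637, 4429 and 4468 CPM in GP and were not called against PF or COR. Tppp3, a tendon sheath gene, was the gene called lower in GP than in COR, at 22.1 against 275 CPM, and it was also called higher in GP than in PF, at 8.32 CPM.

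Of 23 listed signals that induce tendon 18 reached 10 CPM in a tissue. Of these 18, 3 were called higher and 4 lower in GP than in PF, 1 and 2 against SAG, and 4 and 3 against COR. Among all genes tested 8.61% and 7.56%, 18.3% and 12.4%, and 7.02% and 6.39% were. The counts against SAG were not above these shares. The median log2 ratio of the 18 genes was 0.41 to PF, -0.81 to SAG and -0.20 to COR. Tgfb2, a TGF-beta ligand, was at 159 CPM in GP against 51.9, 118 and 53.6 CPM in PF, SAG and COR, and was called against PF and COR. Tgfb3 was at 436 CPM in GP against 219, 348 and 215 CPM and was called against COR. Of 16 enthesis and joint genes, which mark the insertion of tendon and the joint, 10 reached that level, and 1 was called higher and 1 lower in GP than in PF, 2 and 2 against SAG and 3 and 1 against COR, with median log2 ratios of -0.03, 0.36 and -0.63. A count of 1 of 10 is close to the 8.61%, 7.56% and 6.39% of all genes called in the matching directions. Prg4, the joint lubricant, was read in 5 GP cells, 16 SAG cells, 3 PF cells and 2 COR cells. Gdf5, a joint ligand, was read in 6 GP cells and in 2, 8 and 1 cells of PF, SAG and COR.

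Receptors and binding partners of thrombospondins were read throughout. Of 28 listed genes 26 reached 10 CPM, with 5 called higher and 3 lower in GP than in PF, 4 and 8 against SAG and 5 and 2 against COR, and with median log2 ratios of 0.62, -1.19 and 0.33. The shares over all genes tested were 8.61% and 7.56%, 18.3% and 12.4%, and 7.02% and 6.39%. The 4 of 26 called higher than in SAG lay below that share, and the 8 of 26 called lower lay above it. Itgb1, the beta subunit of many matrix receptors, was at 1038 CPM in GP and between 485 and 1016 CPM in the sutures and was not called against any. Calr, a chaperone that binds Thbs1, was at 1117 CPM in GP and was called higher only against SAG, at 498 CPM. Fn1, which encodes fibronectin, and Mmp2, a matrix protease that Thbs2 binds, were at 2815 and 2238 CPM in GP and were called lower than in SAG, at 6752 and 8847 CPM.

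The summed levels of the marker lists also differed between the tissues. The 10 genes of the tendon list, which holds 4 of the members, summed to 11427 CPM in GP and to 5118, 3767 and 3364 CPM in PF, SAG and COR. The chondrocyte list summed to 4212 CPM in GP, 405 in PF, 23849 in SAG and 300 in COR, and 7 of its 11 genes were called lower in GP than in SAG, where 12.4% of all genes were. The pericyte or smooth muscle list summed to 1968 CPM in GP and to 994, 225 and 540 CPM in the sutures, and the neural or glial list to 765 CPM in GP and to 291, 48.7 and 304 CPM. The osteoblast list summed to 101270 CPM in GP and to 118577, 33585 and 119939 CPM, and 5 of its 10 genes were called lower in GP than in PF and 3 lower than in COR, where 7.56% and 6.39% of all genes were. The fibroblast list summed to 29773 CPM in GP and to 17432, 3812 and 27599 CPM. The plates of SAG differed in several lists. On SAG plates 1 and 2 the osteoblast list was at 61866 and 14781 CPM and the fibroblast list at 8158 and 923 CPM. The tendon list was at 5717 and 2470 CPM there, and at 6087 and 4883 CPM on the PF plates. The chondrocyte list was at 23523 and 24066 CPM on the SAG plates. The skeletal muscle, endothelial and haematopoietic lists stayed at or under 18.9 CPM in every tissue. The part of these lists in the levels of the members was not tested.

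Between the sutures the members differed by few calls. Tnmd was higher in PF than in SAG, where 16.9% of genes were, at a log2 ratio of 3.24, and higher in PF than in COR at 1.9, with plate ratios from 1.88 to 2.03. The PF plates, at 311 and 315 CPM, were nearly the same. Comp and Thbs1 were lower in PF than in SAG, where 12.4% of genes were, at log2 ratios of -6.09 and -4.49. Without SAG plate 2 these calls remained, at 2.00 for Tnmd, -7.24 for Comp and -1.59 for Thbs1. Comp was also called higher in PF than in COR, in a comparison where 5.27% of genes were, but rested on 2 PF cells and was lost without the top cell. Comp and Thbs1 were higher in SAG than in COR, where 12.5% of genes were, at log2 ratios of 8.35 and 5.32, and Scx was lower in SAG than in COR, where 18.9% of genes were, at -1.61. Without SAG plate 2 the call for Scx was lost and the ratio for Thbs1 was 2.42. Mkx, Thbs2, Thbs3 and Thbs4 were called in none of the comparisons between sutures.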

How the data were processed

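Single cells of 4 tissues were sorted into wells, and each GEO record is 1 cell. The authors deposited raw read counts per gene and cell in 8 tables, 1 for each plate. Per the labels, reads were aligned with STAR 2.5.3a to mm9 and counted with HTSeq. The annotation and the use of strand are not given in the sources used here. Groups came from the labels, and 1 cell whose description names a different tissue was kept as SAG.

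Cells with under 500 genes or 10000 reads (Rn45s included) were left out (35 of 360). No doublet caller was run, as cells were sorted singly. Counts were summed per tissue and plate, divided by totals without Rn45s (CPM), and the log2 ratio of (CPM + 1) was taken, on which scale differences of low genes come out too small. A tissue is 1 sample, so nothing was tested. A ratio was called where it was at least 1 in size and its sign held in all 4 plate comparisons, over genes with at least 10 CPM in 1 tissue. Plate and tissue cannot be told apart. Intervals are exact Poisson or Clopper-Pearson intervals at 95%. Floors are 3 counts. Depth was 17212041 to 32037308 reads per tissue. Correlations are Pearson correlations of log2(CPM + 1). Alternatives used edgeR 4.0.16 (TMM factors), DESeq2 1.42.0 (size factors) and other filters, pseudocounts and thinning. Clusters were made with Seurat 5.3.0 in R 4.3.3 (2000 variable genes, 15 components, resolution 1). The call rule was tested on simulated data. The members and gene lists were chosen with earlier results of these data known. Named were all members and, for each member, the 3 genes with the highest correlation. The 4 genes of each list with the highest GP level were to be named, but for several lists fewer were. Other genes named were chosen after their values were seen. Promoter sequences are from RefSeq (GRCm38.p6); 4 members matched, and Scx, Mkx, Comp and Thbs1 did not.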

Additional observations from a re-analysis of the deposited data

Results flagged for a closer look

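Reads of members also occurred in the 35 cells that the filter on genes and reads left out. These cells held 1901 reads of Thbs1 in 5 cells and 8092 reads of Thbs2 in 10 cells, most of them on SAG plate 2, which is more than the floor of 3 reads. The kept cells held 109741 and 479308 reads of these genes. For the other 6 members the left-out cells held at most 1 read each.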

How the results depend on the processing

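No paired analysis was possible because the results come from no test and plate numbers do not pair tissues. Of the 57 alternative counts of members called higher in GP, all stayed within 1.5 times the reported count. Leaving out 1 plate gave 5 to 6 members against PF, 4 to 5 against SAG and 6 to 7 against COR. Mkx was added against PF without GP plate 2 or PF plate 2 and against SAG without GP plate 2 or SAG plate 2, Comp against SAG without GP plate 1 or SAG plate 1, and Thbs2 against COR without COR plate 2. Comp on GP plate 2 was at 1893 CPM and without its top cell at 165 CPM, where SAG plate 1 was at 726 CPM. Of the 24 called ratios of members no alternative changed the sign, and 21 stayed called under all 19 alternatives. The exceptions were Scx for GP to COR (mean of single-cell CPM), Comp for PF to COR (pseudocount of 10 CPM, and without the top cell) and Scx for SAG to COR (the filter of 1500 genes and 50000 reads, a pseudocount of 10 CPM, and without SAG plate 2). The share of tendon-like cells in GP was 62.8% with a read of any of the 3 genes and 25.6% with a read of both Scx and Tnmd; that of tendon-like cells in PF was 49.4% and 4.60%. With a read of any of the 3 genes it was 22.1% for tendon-like cells in SAG and 39.2% for tendon-like cells in COR. Leaving out a plate gave 2.94% to 20.8% for tendon-like cells in PF, 6.90% to 18.8% for tendon-like cells in COR, 1.79% to 6.67% for tendon-like cells in SAG and 35% to 39.7% for tendon-like cells in GP. The stricter filter left 0 cells of SAG plate 2. The small number of cells, from 16 to 58 on a plate, limits every share, and a gene read in 1 or 2 cells of a tissue cannot be ranked between tissues.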
